A study of Homo sapiens with 13 samples.

Results

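The siREXO4-only loci are places where a DNA-RNA hybrid peak was called in U2OS cells after REXO4 knockdown and in neither of the other transfections. They were chosen from measured peaks: a peak of the siREXO4 list on chromosomes 1 to 22 or X was taken when no siCtrl peak and no siRNaseH1 peak shared a single base with it. This gave 5464 of the 12687 siREXO4 loci, or 43.1% (95% Wilson interval 42.2 to 43.9%), out of 38099 loci in the 3 lists together. The loci found in no other list were 13579 for siRNaseH1 (64.8% of its 20954 loci) and 2041 for siCtrl (45.8% of its 4458). U2OS is an established human osteosarcoma line. The groups were cells with REXO4 knocked down by siRNA (siREXO4), cells with RNaseH1 knocked down by siRNA (siRNaseH1) and cells with a control siRNA and a WT genotype label (siCtrl), each with 3 immunoprecipitations by the hybrid-binding antibody S9.6 and 1 input. A single IgG library came from siCtrl cells, and there were 13 samples in all. Each list was called by the authors on merged immunoprecipitations, which leaves no spread between replicates. Transfections could therefore not be compared by a test, and read depth is unknown. Because absence from the other lists chose the loci, their peak heights are given as descriptions. Wilson intervals cover counting error only.

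R-loops form when nascent RNA pairs with its DNA template and displaces the other strand, most often behind RNA polymerase at GC-rich gene starts and near transcript ends. RNaseH1 removes them by cutting the RNA within the hybrid. REXO4 belongs to a family of 3′ to 5′ RNA exonucleases and is found in the nucleolus. The series asked whether both enzymes act on R-loops in the same regions, and the siREXO4-only loci are the siREXO4 peaks outside the shared regions.

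Some of these loci lay across the starts of protein-coding genes. The 250 bases before 4 such starts are shown, from RefSeq on GRCh38.p14 (the coordinates of hg38), 5′ to 3′ on the strand of the gene. Capitals mark the bases that lie inside the siREXO4-only peak. FFAR4 encodes a receptor for long-chain fatty acids, SDR39U1 a short-chain dehydrogenase family member, BAX a pro-apoptotic p53 target and TRAPPC4 a subunit of a vesicle tethering complex. They were chosen to show 3 peaks among the higher ones and 1 of ordinary height, TRAPPC4.
FFAR4, chr10:93566415-93566664, plus strand: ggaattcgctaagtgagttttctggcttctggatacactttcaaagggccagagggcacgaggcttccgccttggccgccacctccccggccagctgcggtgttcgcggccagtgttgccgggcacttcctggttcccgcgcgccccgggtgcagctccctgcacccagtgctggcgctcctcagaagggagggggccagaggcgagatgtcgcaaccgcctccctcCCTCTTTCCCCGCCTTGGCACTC
SDR39U1, chr14:24442844-24443093, minus strand: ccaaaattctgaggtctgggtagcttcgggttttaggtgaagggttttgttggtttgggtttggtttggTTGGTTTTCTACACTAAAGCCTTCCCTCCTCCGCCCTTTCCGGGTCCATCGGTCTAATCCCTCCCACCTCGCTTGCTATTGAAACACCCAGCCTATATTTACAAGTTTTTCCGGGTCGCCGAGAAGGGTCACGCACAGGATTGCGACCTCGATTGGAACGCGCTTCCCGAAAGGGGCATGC
BAX, chr19:48954625-48954874, plus strand: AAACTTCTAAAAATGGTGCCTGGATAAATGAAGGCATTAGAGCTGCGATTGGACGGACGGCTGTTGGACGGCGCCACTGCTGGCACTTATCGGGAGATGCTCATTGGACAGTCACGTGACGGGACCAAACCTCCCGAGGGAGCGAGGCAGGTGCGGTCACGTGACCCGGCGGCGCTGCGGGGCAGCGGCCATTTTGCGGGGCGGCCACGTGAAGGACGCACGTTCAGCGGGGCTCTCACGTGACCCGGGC
TRAPPC4, chr11:119018516-119018765, plus strand: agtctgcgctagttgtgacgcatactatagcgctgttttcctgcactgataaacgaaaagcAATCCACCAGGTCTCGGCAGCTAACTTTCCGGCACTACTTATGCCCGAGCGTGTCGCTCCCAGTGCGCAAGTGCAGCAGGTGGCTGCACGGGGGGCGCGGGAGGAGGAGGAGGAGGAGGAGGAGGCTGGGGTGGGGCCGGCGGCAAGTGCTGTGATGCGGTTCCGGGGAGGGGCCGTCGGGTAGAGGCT
The FFAR4 peak had a fold enrichment (coverage at the summit over the local background, as the peak caller reports it) of 13.2 and held the last 23 of the bases shown. The SDR39U1 peak had a fold enrichment of 12.1 and held 181 of the 250 bases. The BAX peak, with 8.86, held all 250, and its summit lay 148 bp past the start. The TRAPPC4 peak, with 4.86, held 189, and the same peak lay just before the ribosomal protein gene RPS25 on the other strand. GC content of the 250 bases was 66.4% at FFAR4, 52.4% at SDR39U1, 62.8% at BAX and 62.8% at TRAPPC4.

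Most siREXO4-only loci were low and narrow. Their median fold enrichment was 4.55 (quartiles 3.99 and 5.08), their median width was 311 bp and their median summit coverage was 12 fragments. The siREXO4 loci that a siRNaseH1 peak but no siCtrl peak overlapped, 5387 in number, had medians of 5.40, 471 bp and 17 fragments. The 2041 siCtrl loci found in no other list (siCtrl-only) had medians of 4.72, 300 bp and 11 fragments within their own list. For the 13579 siRNaseH1 loci found in no other list (siRNaseH1-only), the medians were 4.86, 349 bp and 14 fragments. A fold enrichment of at least 5 was reached by 1516 siREXO4-only loci (27.7%, 26.6 to 28.9%), one of at least 10 by 26 and one of at least 15 by 6. Among the 4458 siREXO4 peaks of lowest p-value, 681 (15.3%, 14.2 to 16.4%) were siREXO4-only, against 43.1% of the whole list.

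The summit coverage was set against the lowest coverage at which each other list would have called a peak, after scaling for the background coverage of the lists, which was 1.41 fragments in siREXO4, 1.36 in siRNaseH1 and 1.28 in siCtrl. The median siREXO4-only locus reached 1.40 times the siRNaseH1 limit and 1.29 times the siCtrl limit. Loci shared with siRNaseH1 reached medians of 1.79 and 1.61 times the same limits. The siCtrl limit was at least as high as the siRNaseH1 limit at all 5464 loci. Both limits were reached by 5079 siREXO4-only loci (93.0%), 1.5 times both by 1294 (23.7%, 22.6 to 24.8%) and 2 times both by 191 (interval 3.04 to 4.02%). Of the loci shared with siRNaseH1, 1677 (31.1%) reached 2 times both. Unequal depth or sampling at a locus near a limit was not tested, and the coverage of the other transfections at these loci was not analysed here.

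**Figure D1:**
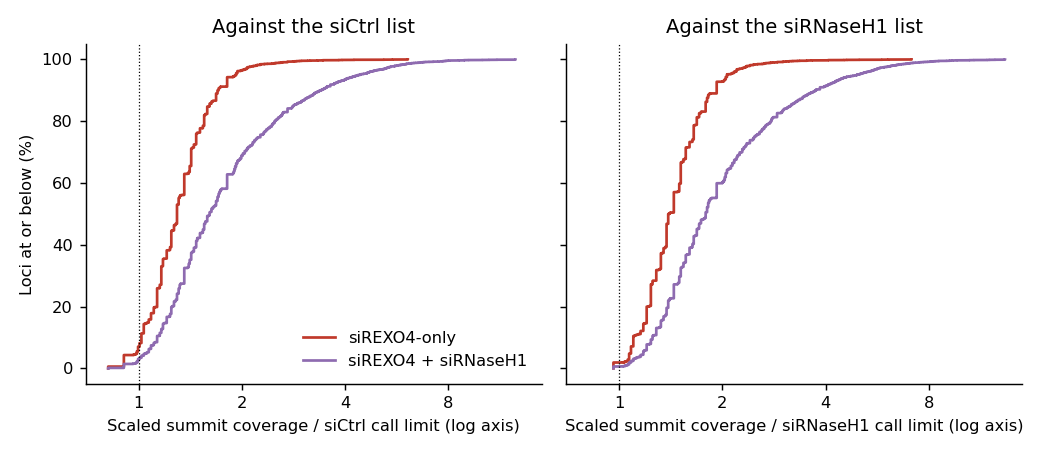
Cumulative share of loci (vertical axis, %) by summit coverage over the call limit of the siCtrl list (left) and of the siRNaseH1 list (right), on log horizontal axes; a dotted line marks a ratio of 1. The siREXO4-only curve (red) lies left of the curve for loci shared with siRNaseH1 (purple), with medians of 1.29 against 1.61 on the left and 1.40 against 1.79 on the right.

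Of the 12 siREXO4-only loci of highest fold enrichment, 3 lay within 2 kb of a transcription start, at AP4E1, FFAR4 and FNBP4. The highest fold enrichment was 19.6, at chr16:11628890-11630182 inside LITAF, which encodes an endosomal membrane protein. That 1293 bp locus had 74 fragments at its summit over a background of 2.83, and coverage 7.13 times the siRNaseH1 limit and 6.09 times the siCtrl limit. The nearest peaks of the other lists were 38102 bp away in siRNaseH1 and 1588350 bp away in siCtrl. AP4E1, a subunit gene of the AP-4 adaptor complex, came next with 18.1, at chr15:50906169-50907020, 725 bp before the annotated gene. The third, with 17.3 and a width of 2452 bp, lay in no gene at chr11:126163236-126165687 and was also the widest of all siREXO4-only loci. LEMD1, a LEM domain gene, held a locus of 16.4 inside the gene, where BLACAT1 is also annotated. TNK2, a non-receptor tyrosine kinase gene, held one of 16.4 at chr3:195876684-195877154.

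A locus of 16.2 lay at chr19:1396063-1396552, 696 bp past the end of NDUFS7, a complex I subunit gene, and within 2 kb of GAMT, which acts in creatine synthesis. It was the closest to another list among these leading loci, 3568 bp from a siRNaseH1 peak. AZIN2, an antizyme inhibitor gene (14.4), PHLDB3 (12.7) and FNBP4, a formin-binding protein gene (12.5), followed, with FFAR4 between them. The FNBP4 locus lay 1006 bp before a start of that gene. The remaining 2 of the 12 highest lay in no protein-coding gene or flank, at chr22:30435129-30436222 (13.6) and chr9:92146843-92147489 (12.9). All 12 had coverage of at least 4.45 times the siRNaseH1 limit and 3.72 times the siCtrl limit. Beyond these, loci with high ratios to the limits lay at ANKRD13C, at SDR39U1, at 2 places outside genes and at the homeobox gene PBX4 (9.49). The locus at ANKRD13C (12.1) lay 421 bp from a siRNaseH1 peak.

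The other widest loci were lower. They measured 2354 bp outside genes on chromosome 16 (fold enrichment 6.03), 2145 bp at the start of ARHGAP45 (4.43), 2076 bp inside PTPRN (5.34) and 1634 bp inside NXN, a thioredoxin family gene (10.2). PTPRN encodes a protein of secretory granules. The ARHGAP45 locus lay 184 bp from a siRNaseH1 peak. Only 26 of the 5464 loci (0.476%) were wider than 1000 bp, against 628 of the 5387 loci shared with siRNaseH1 (11.7%). That width was passed by 176 of the 13579 siRNaseH1-only loci and 0 of the 2041 siCtrl-only loci. Wide loci were thus rare in every set found in a single list.

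Gene position was not used to choose the loci. Of the siREXO4-only summits, 28.4% (27.2 to 29.6%) lay within 2 kb of a boundary of an annotated gene, 49.2% lay farther inside a gene and 22.4% (21.4 to 23.6%) lay between genes. The share near a boundary was 60.8% (59.5 to 62.1%) for loci shared with siRNaseH1, 24.5% for the 13579 siRNaseH1-only loci and 13.6% for siCtrl-only loci. Between genes lay 8.02% of the shared loci, 10.9% of the siRNaseH1-only loci and 31.2% of the siCtrl-only loci. The 1836 siREXO4 loci with a siCtrl peak had 45.6% near a boundary and 20.0% (18.2 to 21.9%) between genes. The latter interval overlaps that of the siREXO4-only loci. Of the siREXO4-only loci, 655 (interval 11.2 to 12.9%) were over 10 kb from any gene, against 3.45% of siRNaseH1-only and 17.7% of siCtrl-only loci. The siREXO4-only loci thus lay between the shared and the siCtrl-only loci in both shares, beyond the counting intervals.

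**Figure D2:**
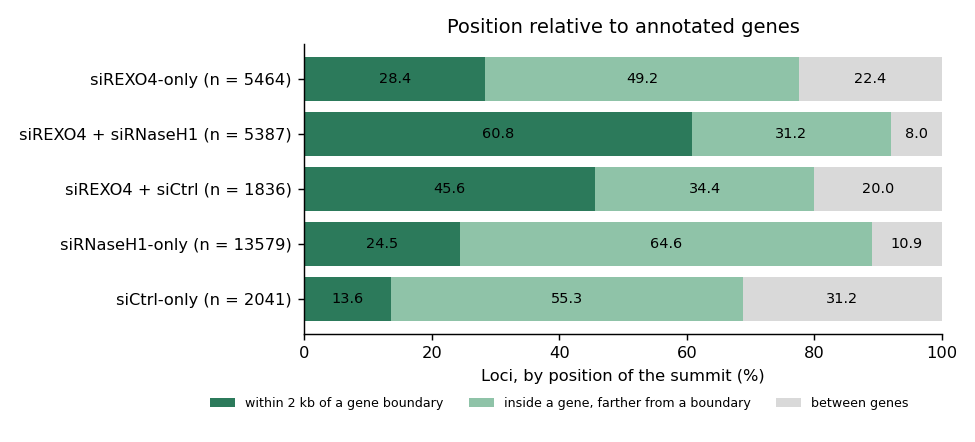
Share of loci (horizontal axis, %) by the position of the summit, for 5 sets that do not overlap within a list. "siREXO4 + siRNaseH1" are siREXO4 loci with a siRNaseH1 and no siCtrl peak, and "siREXO4 + siCtrl" are siREXO4 loci with a siCtrl peak. Near a gene boundary lay 28.4% of the siREXO4-only loci, against 60.8% of the loci shared with siRNaseH1.

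The promoter table gives a strand, so that starts and ends of genes could be told apart on all chromosomes but 8, for which it has no entries. A summit lay within 2 kb of a transcription start in 893 of 5182 siREXO4-only loci (17.2%, 16.2 to 18.3%). The share was 47.5% for loci shared with siRNaseH1, 26.8% for siREXO4 loci with a siCtrl peak, 9.91% for siRNaseH1-only loci and 3.31% for siCtrl-only loci. Within 500 bp the shares were 11.7%, 39.2%, 20.8%, 5.10% and 0.210% in the same order of sets. The most filled 250 bp bin of the siREXO4-only loci began at the start itself and held 280 loci, or 5.40%. Summits before the start made up 33.0% (30.0 to 36.2%) of the 893, against 23.1% (21.5 to 24.8%) of the shared loci so placed. Near a gene end, and not near a start, lay 5.08% (4.51 to 5.71%) of the siREXO4-only loci, against 9.36% (8.87 to 9.88%) of siRNaseH1-only loci.

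**Figure D3:**
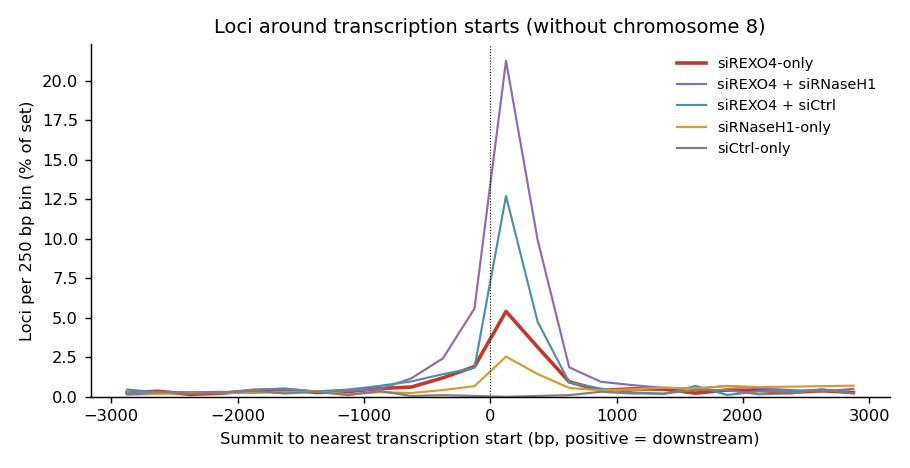
Share of each set (vertical axis, % per 250 bp bin) by the distance from the summit to the nearest transcription start (horizontal axis, bp), without chromosome 8. The siREXO4-only curve (thick red) reaches 5.40% just past the start, below both sets of siREXO4 loci that another list shares and above the siRNaseH1-only and siCtrl-only curves.

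Position varied with height. In the highest of 4 equal groups by fold enrichment (5.08 to 19.6), 25.1% (22.8 to 27.5%) of the siREXO4-only loci lay within 2 kb of a start, while the other groups gave 14.3 to 15.1%. The shares also differed from those of the shared loci within bands of the ratio to the call limits. That ratio comes from the fold enrichment and p-value that decide a call. The bands are therefore given as description, and height was not tested as a cause. In the lower of 2 equal bands between 1 and 1.5, 12.2% (10.8 to 13.7%) of the siREXO4-only loci and 25.7% (22.9 to 28.7%) of the shared loci lay near a start. In the upper band the shares were 16.5% (14.8 to 18.4%) of the siREXO4-only loci and 33.9% (31.2 to 36.7%) of the shared loci. The band from 1.5 up has no upper end, and the shared loci reach higher in it. There, 27.9% (25.4 to 30.4%) of the siREXO4-only loci and 60.3% (58.5 to 62.0%) of the shared loci lay near a start. Where the ratio was below 1, 11.9% (8.98 to 15.6%) of the siREXO4-only loci and 25.5% (19.3 to 32.8%) of the shared loci did. Within protein-coding genes of known strand, 31.9% (30.2 to 33.7%) of the siREXO4-only summits lay in the first of 5 equal lengths of the gene and 15.8 to 17.8% in each of the others. Of the shared loci so placed, 57.7% lay in the first. The siRNaseH1-only loci had 24.1 to 25.9% (interval) in the first and 22.8% in the last.

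Where siREXO4-only loci covered promoters, these were GC-rich. At least 150 bases of the 300 base promoter window (250 before and 50 after a start) were covered at 307 starts, of 275 genes, 227 of them protein-coding. Their median GC content was 69.0% (quartiles 62.0 and 73.7%), against 69.0% at promoters covered by shared loci, 70.3% at those covered by siRNaseH1-only loci and 58.7% over all 34961 listed promoters. The ratio of observed to expected CpG had a median of 0.85, against 0.89 for the shared loci and 0.58 over all promoters. A G-run motif was searched on both strands: 4 runs of at least 3 G, separated by 1 to 7 bases of any kind, counted as present in a promoter however many matches overlapped. It was found in 42.0% (36.6 to 47.6%) of the 307 promoters, against 40.0% of those covered by shared loci, 42.0% of those covered by siRNaseH1-only loci and 8754 of the 34961 promoters in all (24.6 to 25.5%). Over the 22132 protein-coding promoters, median GC content was 62.3%, the median CpG ratio was 0.74 and 30.5% held the motif. The motif shares on the strand of the gene and on the other strand were 22.8% and 22.5% for the siREXO4-only loci. The 4 promoters printed above, chosen after their values were seen, held no match in the 250 bases. A candidate that was not printed, at CDS2, held 1. In GC content and motif share the covered promoters thus differed little between the sets. A peak of another list touched 3 of the 307 promoters elsewhere in the window.

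Some siREXO4-only loci lay beside peaks of the other lists. A siRNaseH1 peak lay within 2 kb of 835 (15.3%) and a siCtrl peak within 2 kb of 220 (4.03%). The lists differ in length, so these shares are not compared. Taking both lists, 924 loci (16.9%) had a peak within 2 kb, and the median gap to the nearest was 18814 bp. Of the 893 loci near a start, 205 (interval 20.3 to 25.8%) had such a neighbour, against 16.0% (14.9 to 17.1%) of the others. Without loci that had a neighbour within 2 kb, 16.0% lay near a start, against 17.2% of all. At the edge of the rule, 8 loci lay 10 bp or less from a peak of another list, with fold enrichments of 3.27 to 8.61, and 9 siREXO4 loci were left out for an overlap of 10 bp or less, with 3.81 to 6.23.

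Among themselves the loci were mostly single. Another siREXO4-only locus lay within 10 kb of 968 (17.7%, 16.7 to 18.8%). Joined at that distance, the loci formed 4933 groups, of which 437 held more than 1 locus and 16 held 4 or 5. A group of 5 at chr17:19214938-19226224, outside protein-coding genes, had fold enrichments of 3.74 to 8.15 and no peak of another list within its 11.3 kb. Of the groups of 4, 6 had no peak of another list among them. They lay within YAP1, the coactivator of the Hippo pathway (chr11:102175132-102184174), within the protease gene MBTPS1, at the ubiquitin-like modifier gene SUMO2, and outside protein-coding genes on chromosomes 4 and 7. The other lay at the end of MDM2, which encodes the p53 ubiquitin ligase, and within CPM (chr12:68849052-68857443). These groups were chosen for their size after it was seen. The group at RNF43, a Wnt pathway ubiquitin ligase gene, held 5 and lay among 2 siRNaseH1 peaks.

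At the level of genes, 3159 of 19974 protein-coding genes held a siREXO4-only locus in the gene or its 2 kb flanks, or 15.8%. Their median length was 51.7 kb, against 24.2 kb for all protein-coding genes. Of the 3159, 1988 (62.9%, 61.2 to 64.6%) also held a siRNaseH1 peak elsewhere, 790 (23.5 to 26.5%) a siCtrl peak, and 1087 (34.4%, 32.8 to 36.1%) neither. Of all protein-coding genes, 39.2% held a siRNaseH1 peak, 2393 (11.5 to 12.4%) a siCtrl peak and 58.8% neither. More than 1 siREXO4-only locus was held by 675 genes and at least 4 by 52. NTSR1, the neurotensin receptor gene, held 7 such loci among 13 siREXO4 peaks, beside 6 siRNaseH1 and 2 siCtrl peaks. A further locus of 11.5, among the highest outside genes, lay 4905 bp before its start. MED13, of the Mediator kinase module, and the chromatin remodeller gene CHD2 also held 7 each, beside 11 and 8 siRNaseH1 peaks and 1 siCtrl peak each. GDA, the guanine deaminase gene, held 6, beside 7 siRNaseH1 peaks and 1 siCtrl peak. YAP1, like CLASP1, DIAPH1 and ZBTB20, also held 6, over a gene of 123 kb, with fold enrichments of up to 6.23, beside 1 siRNaseH1 and no siCtrl peak. The highest fold enrichment was 8.30 at CLASP1, 7.15 at MED13, 6.64 at ZBTB20, 6.16 at DIAPH1, 5.81 at GDA, 5.53 at NTSR1 and 4.98 at CHD2. REXO4 held no peak in any list. Peaks do not measure how far REXO4 or RNASEH1 transcripts were reduced. RNASEH1 held no siREXO4-only locus; its 1 siREXO4 peak was shared, and 3 siRNaseH1 peaks and no siCtrl peak lay there.

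Gene lists were then counted against the 15.8% of all protein-coding genes, with no test, since genes differ in length and the lists are short. Of 47 R-loop helicase and processing genes, 15 held a siREXO4-only locus (31.9%, 20.4 to 46.2%), and their median length was 47.9 kb. Of the 47, 34 held a siRNaseH1 peak, against 39.2% of all protein-coding genes. A siCtrl peak was held by 14, against 11.5 to 12.4% (interval). The 15 included TOP2A, the topoisomerase II alpha gene, with a fold enrichment of 6.23 in its flank. The hybrid-unwinding helicase DHX9 had 5.81, beside 16 siRNaseH1 and 2 siCtrl peaks in that gene. ZC3H11A, an mRNA export factor gene, had 5.63 in its flank and AQR, a spliceosome-associated helicase gene, 5.40 inside the gene. Of 17 RNase H, REXO and other RNA nuclease genes, 3 did. RNASEH2C, a subunit gene of RNase H2, had 6.13 inside the gene and 155 bp past a start. DICER1 had 5.08, 163 bp past a start, and the RNA exosome gene EXOSC3 had 4.19 in its flank. Neither DICER1 nor EXOSC3 held a peak of another list.

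Of 22 p53 target genes, 8 held a siREXO4-only locus (36.4%, 19.7 to 57.0%). Of the 22, 18 held a siRNaseH1 peak, against 39.2% of all protein-coding genes, and 6 a siCtrl peak, against 11.5 to 12.4% (interval). A siREXO4 locus shared with siRNaseH1 was held by 14, a count not made over all genes. BAX led with 8.86 from 39 fragments and held no peak of another list. CCNG1, which encodes cyclin G1, had 3 loci of up to 6.64, beside 3 siRNaseH1 peaks. MDM2 had 3 of up to 5.68, the highest in its flank, beside 9 siRNaseH1 peaks and 1 siCtrl peak. BBC3, the PUMA gene, had 3 of up to 5.65, beside 4 siRNaseH1 peaks and 1 siCtrl peak. Of 40 replication genes, 9 held a siREXO4-only locus (22.5%, 12.3 to 37.5%). Among them were the origin recognition genes ORC1 (5.74, 224 bp from a siRNaseH1 peak) and ORC2 (4.42). The helicase subunit gene MCM4 had 5.11. PCNA, the sliding clamp, had 5.62 in its flank, where the same peak lay across the start of CDS2. Of 25 antioxidant response genes, 6 held a siREXO4-only locus. TXNRD1, the thioredoxin reductase gene, held 5 siREXO4-only loci with a highest fold enrichment of 5.81, beside 16 siRNaseH1 peaks and 1 siCtrl peak. The transporter genes ABCC2 (5.43) and ABCC1 (4.15) and the glutathione reductase gene GSR (4.74, in its flank) held 1 each.

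Genes of the translation machinery held siREXO4-only loci at shares below the 15.8% of all protein-coding genes. The interval of the ribosome biogenesis genes contained that share. The rule leaves out siREXO4 peaks that touch a siRNaseH1 peak. These low counts therefore do not show few siREXO4 peaks. Of 79 cytosolic ribosomal protein genes, 6 held a siREXO4-only locus (7.59%, 3.53 to 15.6%), while 74 held a siRNaseH1 peak and 40 a siCtrl peak, against 39.2% and 11.5 to 12.4% (interval) of all protein-coding genes. A siREXO4 locus shared with siRNaseH1 was held by 43 of the 79, a count not made over all genes. RPL10 had 4.98 with no peak of another list. RPL13 (4.87, 444 bp from a siRNaseH1 peak), RPS25 (4.86) and RPS15 (4.59) had their highest locus in a flank. These genes are short, with a median of 5.01 kb against 24.2 kb for all protein-coding genes, and length was not tested as a reason for the count. They also have many processed pseudogenes, so that peaks over their exons are uncertain. Of 44 ribosome biogenesis and nucleolar genes, 3 did (6.82%, 2.35 to 18.2%), while 41 held a siRNaseH1 peak, against the same 39.2%. They were TSR1, a factor of small subunit maturation (7.04, in its flank), the nucleolar GTPase gene GNL3L (6.23) and RRP9, a U3 snoRNP protein gene (4.25, in its flank). The nearest listed start of any gene lay 186 bp before the summit of the TSR1 locus and 1000 bp before that of the RRP9 locus.

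The remaining lists lay near or below the share of all genes, or had wide intervals. Of 23 common fragile site genes, 7 did (30.4%, 15.6 to 50.9%), with a median length of 1195 kb, including IMMP2L (5.40) and CTNNA1 (4.55). Of 40 neuronal and ion channel genes, 6 did, including CSMD1 (5.81), NRXN3 (5.81), NTSR1 and CACNA1B (4.82, 192 bp from a siRNaseH1 peak). Of 24 immediate early genes, 4 did, namely FOSL1 (4.78, in its flank), KLF6 (4.43), NR4A1 (4.28) and IER5 (3.74). A siRNaseH1 peak lay 232 bp from the KLF6 locus and 159 bp from the NR4A1 locus. Of the 24, 22 held a siRNaseH1 and 16 a siCtrl peak, against 39.2% and 11.5 to 12.4% (interval) of all protein-coding genes. Of 30 genes of other tissues, 3 held a siREXO4-only locus. CRYAA, a lens crystallin gene, had 9.06 with no peak of another list, but it lies in a region duplicated in this assembly, which makes the locus uncertain. EPCAM had 4.53 and CD4 3.47. Of 24 osteosarcoma and mesenchymal genes, 2 did, TWIST2 (5.38, 415 bp from a siRNaseH1 peak) and COL5A1 (4.21). Of 10 defining markers of the line's tissue, such as RUNX2 and COL1A1, none held a siREXO4-only locus. Peaks do not measure transcripts, so these counts do not check the cell type.

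**Figure D4:**
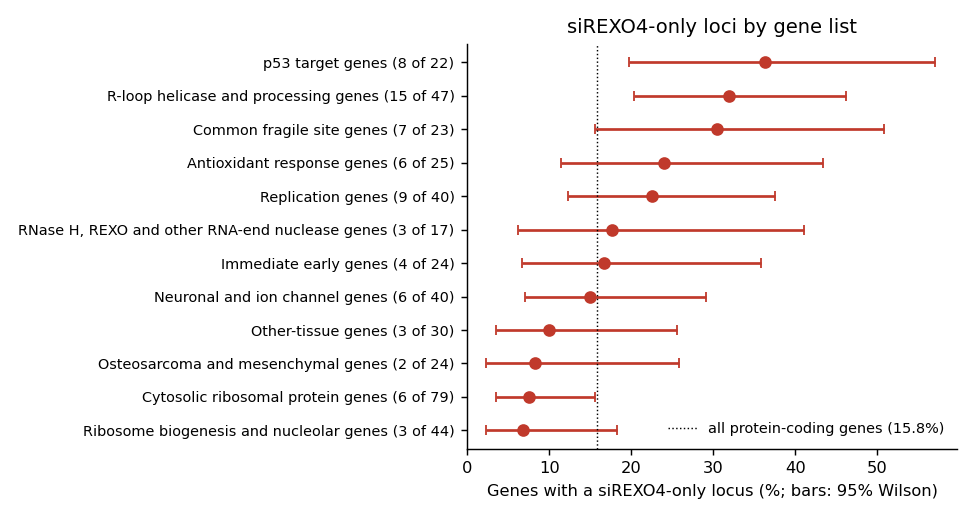
Share of the genes of each list that held a siREXO4-only locus in the gene or its 2 kb flanks (horizontal axis, %; points, with 95% Wilson intervals as bars), ordered by share. A dotted line marks the 15.8% of all protein-coding genes. The p53 target genes (36.4%) are highest, and cytosolic ribosomal protein (7.59%) and ribosome biogenesis genes (6.82%) are lowest. Loci that another list shares are not counted.

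The loci were spread over all 23 chromosomes. Per Mb up to the last annotated gene, they were densest on chromosomes 19 (5.99) and 17 (4.55), against 1.80 over all chromosomes, and sparsest on X (0.545). For siCtrl the same chromosomes were highest, with 4.30 on 17 and 4.20 on 19. As a share of the siREXO4 loci of a chromosome, siREXO4-only loci were lowest on 21 (31.7%, 25.8 to 38.3%) and 19 (36.1%, 33.1 to 39.1%) and highest on 18 (53.1%, 45.4 to 60.7%). The intervals of these 3 chromosomes and of 7 (48.7%, 45.0 to 52.4%) and 5 (47.6%, 43.4 to 51.8%) did not contain the 43.1% of the whole list. Chromosome copy number in U2OS cells was not analysed here.

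**Figure D5:**
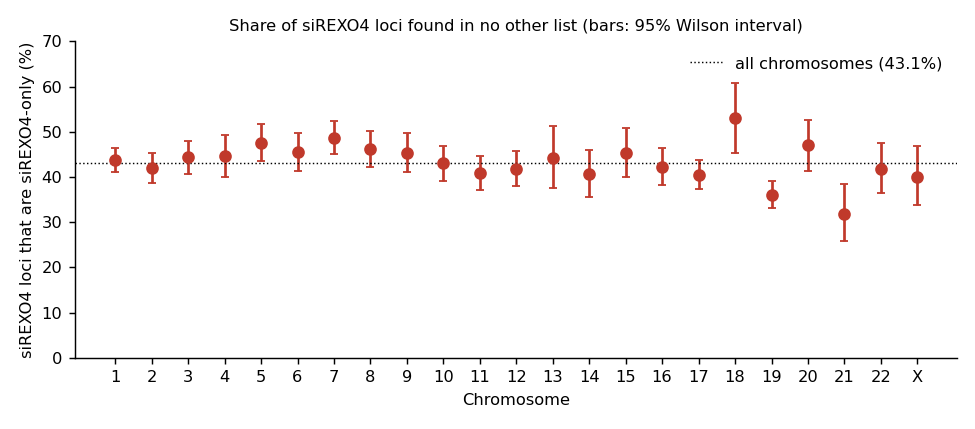
Share of the siREXO4 loci of each chromosome that are siREXO4-only (vertical axis, %; points, with 95% Wilson intervals as bars), with a dotted line at 43.1% for all chromosomes. Chromosomes 19 (36.1%) and 21 (31.7%) lie below the line and chromosome 18 (53.1%) above it.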

How the data were processed

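DRIP-seq measured S9.6 immunoprecipitations in U2OS cells. Per the submitters' processing notes, the tools included MACS2 2.1.0.20150731, HISAT2 2.2.1, SAMtools 1.17, Trim Galore 0.6.10, deepTools 3.5.1 and Cufflinks, with hg38. Their roles and options, the control library of the peak calls and the handling of duplicates: not given in the sources used here. Per the labels, the authors merged the 3 immunoprecipitations of a group, and 1 headerless peak list per group was used. The deposited fold enrichment is a ratio of summit to local background coverage. The deposited −log10 p-value and −log10 q-value are those of that summit. The score the authors deposited is the −log10 q-value times 10, rounded down, and was not used. Positions came from the deposited summit offset.

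A shared base counted as overlap. Summit fragments and background were solved from the fold, taken as (fragments + 1) / (background + 1), and from the p-value, taken as an upper Poisson tail, with an error in −log10 p below 0.001. The call limit of another list is the lowest fragment number that reaches its lowest −log10 p at the background of the locus, scaled by the lowest backgrounds of the lists. It assumes that local background scales alike in all lists.

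Genes (59098, of which 19974 are protein-coding) and promoter sequences (34961 starts of 27195 genes, none on chromosome 8) came from RefSeq GRCh38.p14 tables. All 410 listed symbols were found. No genome sequence was used, so base composition was taken from promoters in place of whole loci. Named loci are the 12 of highest fold, the next 6 by ratio to the limits, the 5 widest, the 3 highest outside genes, the 5 genes with most loci and up to 4 genes per list. Some of these are not reported here. Printed promoters come from named loci that hold at least 20 of the 250 bases before the outermost start of a gene, and 4 were chosen after their values were seen. The loci and gene lists were chosen with earlier results of these data known. The code, tested on simulated data, ran in Python 3.11.15 with SciPy 1.17.1, pandas 2.3.3, Matplotlib 3.10.9 and NumPy 2.4.6.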

Additional observations from a re-analysis of the deposited data

Results flagged for a closer look

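Outside chromosomes 1 to 22 and X, the siREXO4 list held 470 peaks, of which 182 overlapped no peak of another list. The siRNaseH1 list held 620 there. The siCtrl list held 167, 48 of them in no other list. The lists also differ in length on the chromosomes used, with 12687 siREXO4, 20954 siRNaseH1 and 4458 siCtrl loci, so these numbers do not compare the transfections. Of the 182 siREXO4 peaks, 137 lay on alternate sequences, where reads also match the primary chromosomes. Their median fold enrichment was 4.57 and the highest was 21.4. They were noted because they outnumber those of the control list and were not used in the comparisons above.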

How the results depend on the processing

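The number of siREXO4-only loci (5464) was 5088 or 4540 when another list's peak within 500 bp or 2 kb also ended membership, 6060 when short overlaps were tolerated, and 5079 when coverage had to reach both call limits. It was 1516 at a fold of at least 5, 1741 at a −log10 q of at least 5, 1294 at 1.5 times both limits and 1677 with all lists cut to 4458 peaks, where shared loci can lose their partner. The share near a gene boundary (28.4%) was 19.5% within 1 kb, 45.0% within 5 kb, 20.3% for protein-coding genes, 34.3% at a fold of at least 5 and 26.7% without loci near another list's peak. Chosen after seeing the data, it was 29.0% without chromosome 8 and 28.7% for loci reaching both limits. Genes with a locus (3159) numbered 1056 at a fold of at least 5, and listed genes 26 in place of 71. Loci with another within 5 or 20 kb made up 12.3% and 24.9%, and those with another list's peak within 1 or 10 kb 11.3% and 38.7%. Median promoter GC was 68.3% at any coverage and 69.2% in full. No paired analysis was possible because each transfection has 1 merged list, and no replicate could be left out. Most loci lay under 1.5 times a call limit, where depth and sampling limit what absence from a list shows.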

Other observations

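Few siREXO4-only loci lay on small RNA genes. Of the 5464, 6 overlapped an annotated snRNA gene, among them the variant U1 genes RNVU1-3, RNVU1-6, RNVU1-15, RNVU1-28 and RNVU1-31. The number was 8 of 5387 for loci shared with siRNaseH1, also with variant U1 genes among them, 2 of 13579 for siRNaseH1-only loci and 19 of 1836 where a siCtrl peak overlapped the siREXO4 peak. Variant U1 genes have near-identical copies, so these loci are uncertain. A tRNA gene was overlapped by 2 (TRQ-CTG4-2 and TRS-CGA4-1), a miRNA gene by 3 (MIR3143, MIR4710 and MIR6875), a snoRNA gene by 1 (LOC124904778) and a rRNA gene by 1 (LOC124905426). Of the loci shared with siRNaseH1, 26 overlapped a miRNA gene. A lncRNA gene was overlapped by 670 siREXO4-only loci (12.3%), against 15.1% of loci shared with siRNaseH1, 13.2% of those with a siCtrl peak, 8.45% of siRNaseH1-only loci and 11.5% of siCtrl-only loci. These genes were named after their values were seen.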
